A study of Homo sapiens with 6 samples.

Results

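The U11/U12 minor spliceosome is the second, rarer splicing machine of human cells. Most introns are removed by the major spliceosome, built on U1, U2, U4, U5 and U6 snRNA, whereas a small class called U12-type introns is recognised by the U11/U12 di-snRNP and then by U4atac, U6atac and U5. The proteins described here were chosen as those particular to the minor machine. They fall into subunits that read the 5′ splice site with U11, subunits that join U11 to U12, a factor that reads the 3′ splice site and a factor of the activated particle. The 9 genes, SNRNP25, SNRNP35, SNRNP48, PDCD7, RNPC3, ZMAT5, ZCRB1, ZRSR2 and SCNM1, were taken by exact symbol from a gene table of 25365 rows. Each had 1 row, and all 9 were expressed highly enough to be tested.

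The genes were measured by poly(A) RNA-seq in MDA-MB-231, an established triple-negative breast cancer cell line. The 3 si-Control libraries are of cells that received a non-targeting siRNA (Ambion AM4611) and the 3 si-NRDE2-2 libraries of cells that received 1 siRNA against NRDE2 (Ambion s30064), both at 20 nM and both harvested after 48 h. NRDE2 is a nuclear protein of RNA surveillance that partners the helicase MTREX, and the comparison asks what happens to mRNA levels when it is depleted. No second siRNA and no rescue is among these samples, so effects of NRDE2 loss and of this siRNA on other transcripts cannot be told apart. Values are FPKM, fragments scaled to transcript length and library size, so levels may be compared between genes. Means are given ± SD with n = 3, and log2 fold changes (si-NRDE2-2 over si-Control, on the log2(FPKM + 0.1) scale) carry their SE (±) and limma's p-values, adjusted over all 11788 tested genes by Benjamini-Hochberg. A gene is said to have risen or fallen where the adjusted p was under 0.05.

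NRDE2 itself was 4.39, 4.45 and 3.80 FPKM in the control libraries and 0.230, 0.234 and 0.229 FPKM after knockdown, so each library matched its label. Estimated depth ran from 42900000 to 59200000 fragments, the shallowest library being si-NRDE2-2 replicate 3. The line's mesenchymal marker VIM was at 1113 FPKM or above in every library. Of 6 markers of the line 2 rose and 0 fell, or 33.3% called against 44.0% of all tested genes. These were CD44 (0.26 ± 0.04, limma, adjusted p = 7.9e-04) and KRT18 (0.20 ± 0.05, limma, adjusted p = 0.00877). ESR1 and PGR, the hormone receptor genes, were at most 0.00356 and 0.00441 FPKM. ERBB2, the HER2 gene, lay between 10.3 and 12.9 FPKM and fell (-0.27 ± 0.05, limma, adjusted p = 0.00110). The leukocyte markers PTPRC and CD3E did not exceed 0.0618 FPKM, while CD14 lay between 1.29 and 1.71 FPKM in the control libraries and between 2.24 and 2.38 FPKM after knockdown and rose (0.66 ± 0.10, limma, adjusted p = 5.0e-04). Of 3 endothelial markers CDH5 and VWF did not exceed 0.0428 FPKM, and PECAM1, which was too low to be tested, lay between 0.525 and 0.688 FPKM in the control libraries and between 0.958 and 1.18 FPKM after knockdown. The part of other cells in the results was not tested.

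Knockdown of NRDE2 left most of these 9 minor spliceosome genes near their control level. Of the 9 genes, 1 fell (SNRNP25, to 0.766 times its control mean) and 1 rose (PDCD7, to 1.14 times). Of all tested genes 44.0% passed the same threshold, 20.9% upward and 23.0% downward, against 22.2% of the 9. The groups did not overlap for 2 of the 9, the same pair of genes, where 53.5% of all tested genes did not overlap (25.2% higher and 28.3% lower after knockdown). The median log2 fold change was 0.0052 over the 9 genes and -0.0160 over all tested genes, and the median absolute change was 0.04 against 0.14. For 6 of the 9 the fitted change was at most 0.06 in either direction, a size shared by 23.2% of all tested genes. This bound was not planned and was set at the largest change among those 6 genes after their values were seen. The 23.2% therefore only describes the size, and the share of members within it is not weighed against it.

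**Figure D1:**
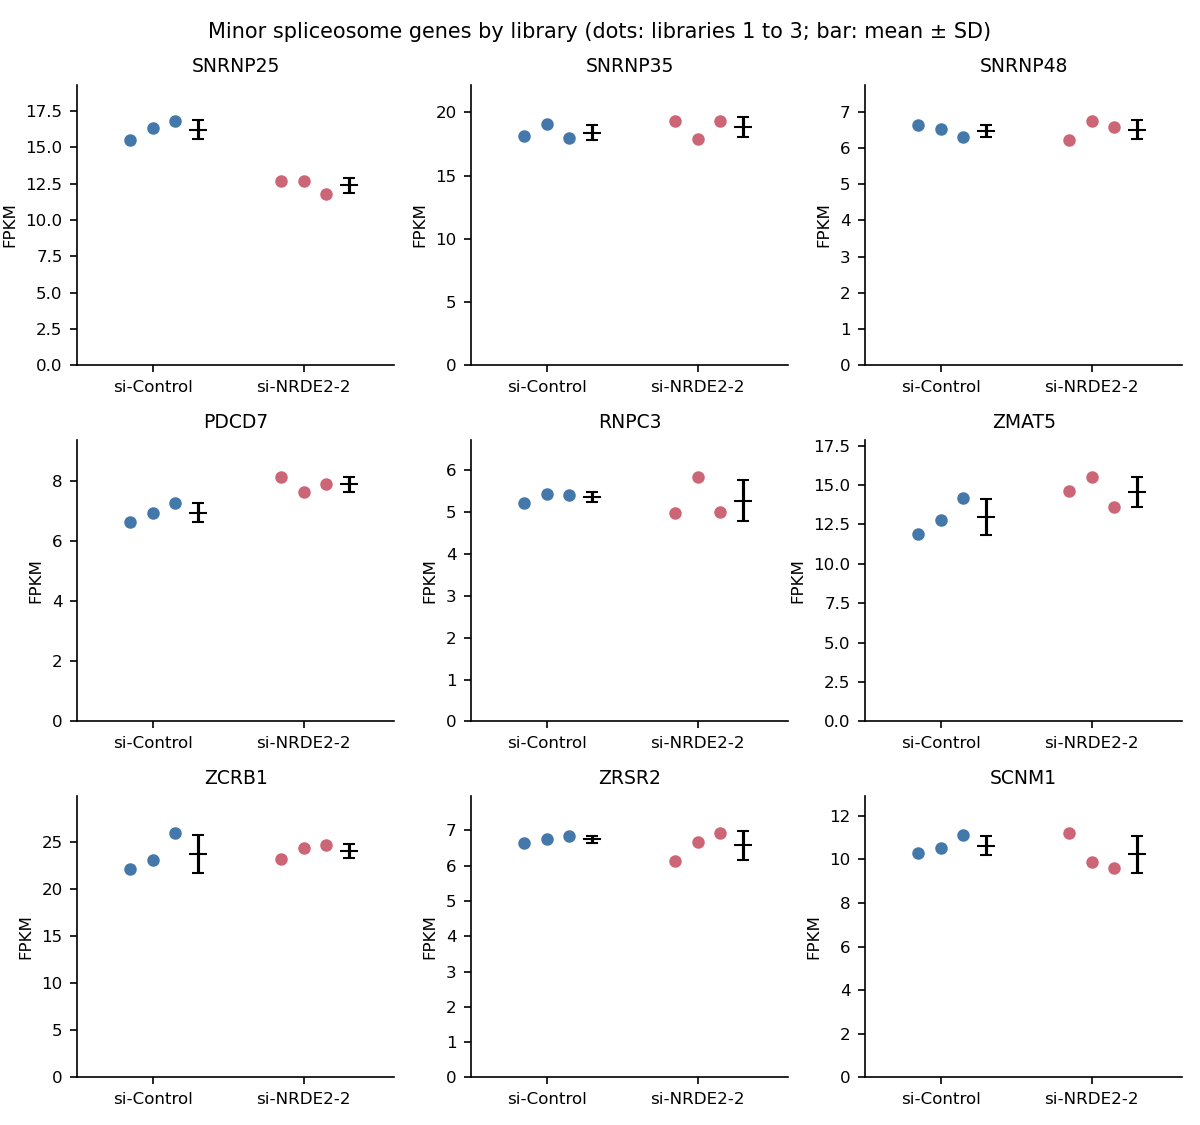
FPKM of the 9 genes in each library (vertical axes, from 0), with 3 si-Control libraries in blue and 3 si-NRDE2-2 libraries in red; the black bar is the mean ± SD. SNRNP25 is lower in all 3 knockdown libraries (11.8 to 12.7 against 15.5 to 16.8 FPKM) and PDCD7 higher in all 3 (7.63 to 8.12 against 6.63 to 7.26 FPKM), while the other 7 genes overlap between the groups.

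The U11 subunits come first, since they make the first contact with a U12-type intron. SNRNP25 encodes a protein of the U11 particle with a ubiquitin-like fold. Its level was 15.5, 16.3 and 16.8 FPKM in the control libraries (replicates 1, 2 and 3, an order kept below) and 12.7, 12.7 and 11.8 FPKM after knockdown. Every knockdown library was thus below every control library. The mean went from 16.2 ± 0.675 to 12.4 ± 0.487 FPKM, a log2 fold change of -0.38 ± 0.05 with a 95% interval from -0.49 to -0.27 (limma, adjusted p = 1.4e-04). By absolute change SNRNP25 stood at the 86.7th percentile of tested genes, and its call held in all 17 alternative analyses (log2 fold change -0.41 to -0.35).

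SNRNP35 encodes the U11 counterpart of the U1-70K protein and binds U11 snRNA. It was at 18.1, 19.1 and 18.0 FPKM in the control libraries and 19.3, 17.9 and 19.3 FPKM after knockdown. The groups overlap, and the log2 fold change was 0.04 ± 0.05 with an interval from -0.07 to 0.14 (limma, adjusted p = 0.582). These are 2 proteins of one particle, and the ratio of their mRNAs was examined after their values were seen. SNRNP25 stood at 0.854, 0.854 and 0.935 of SNRNP35 in the control libraries and at 0.657, 0.706 and 0.613 of it in the knockdown libraries. The ratio did not overlap between the groups, with a mean of 0.881 ± 0.0466 against 0.659 ± 0.0466.

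SNRNP48 encodes the U11 protein that contacts the 5′ splice site, and its own transcript is known to carry a conserved splicing enhancer through which U11 limits its level. Its control values were 6.62, 6.52 and 6.29 FPKM and its knockdown values 6.21, 6.74 and 6.57 FPKM. Here too the groups overlap, with a log2 fold change of 0.01 ± 0.06 (interval -0.12 to 0.13, limma, adjusted p = 0.949), the smallest of the 9. PDCD7 encodes the U11 protein that links SNRNP48 to RNPC3 and so helps tie U11 to U12. It went from 6.63, 6.94 and 7.26 FPKM to 8.12, 7.63 and 7.88 FPKM, every knockdown library lying above every control library. The mean rose from 6.94 ± 0.315 to 7.88 ± 0.246 FPKM (log2 fold change 0.18 ± 0.06, interval 0.06 to 0.30, limma, adjusted p = 0.0218). This call was lost when si-Control replicate 1, si-Control replicate 2 or si-NRDE2-2 replicate 3 was left out (adjusted p = 0.0896, 0.0687 and 0.0565). Its adjusted p spanned 0.00283 to 0.0896 in 17 alternatives, and the log2 change stayed between 0.15 and 0.21.

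**Figure D2:**
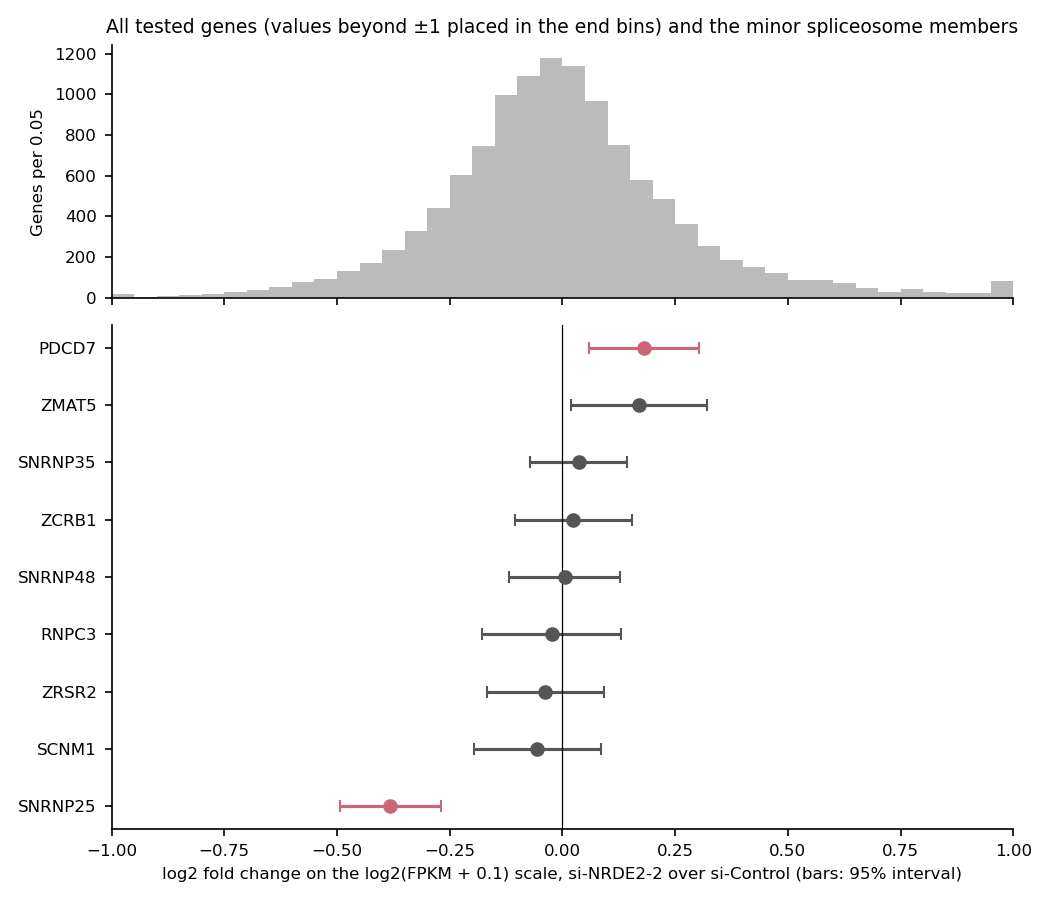
Upper panel: number of tested genes per 0.05 of log2 fold change, with values beyond ±1 placed in the end bins. Lower panel: log2 fold change of each of the 9 genes with its 95% interval, red where the adjusted p was under 0.05; SNRNP25 (-0.38) and PDCD7 (0.18) are the red points, and 6 genes lie within 0.06 of 0.

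Of the proteins that join the di-snRNP, RNPC3 binds the U12 snRNA and meets PDCD7 at its other end. Like SNRNP48, it is known to be held down by a conserved U11-bound enhancer in its transcript. RNPC3 had the lowest level of the 9, at 5.21, 5.42 and 5.41 FPKM in the control libraries and 4.98, 5.83 and 5.00 FPKM after knockdown. The knockdown libraries lie on both sides of the controls (log2 fold change -0.02 ± 0.07, interval -0.18 to 0.13, limma, adjusted p = 0.804). GENCODE lists 9 RNPC3 transcripts, 1 of them a target of nonsense-mediated decay and 2 with a retained intron, and 1 of 3 SNRNP48 transcripts as a decay target. A value per gene does not show how these isoforms share the total.

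ZMAT5 and ZCRB1 encode zinc-finger proteins of the same di-snRNP, the second with an RNA-binding domain as well. ZMAT5 was at 11.9, 12.8 and 14.2 FPKM in the control libraries and 14.6, 15.5 and 13.6 FPKM after knockdown. Its groups overlap through 1 library on each side, si-Control replicate 3 and si-NRDE2-2 replicate 3. The log2 fold change of 0.17 ± 0.07 was close in size to that of PDCD7, with an interval from 0.02 to 0.32, and its adjusted p of 0.0639 (limma) missed the threshold. Without si-Control replicate 3 or si-NRDE2-2 replicate 3 the adjusted p was 0.0138 and 0.0330. Under median-ratio scaling it was 0.0484, and with GC and length trends removed 0.00609, within a range of 0.00609 to 0.229. ZCRB1, the most abundant of the 9, was at 22.1, 23.0 and 25.9 FPKM in the control libraries and 23.2, 24.3 and 24.6 FPKM after knockdown (0.02 ± 0.06, interval -0.10 to 0.15, limma, adjusted p = 0.764). All 3 knockdown values of ZCRB1 lie inside the control range.

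ZRSR2 encodes the factor that reads the 3′ splice site of U12-type introns and is recurrently mutated in myelodysplastic syndromes. Its control values were 6.63, 6.74 and 6.85 FPKM and its knockdown values 6.12, 6.67 and 6.92 FPKM. The knockdown libraries spread more widely than the controls and include both the lowest and the highest value (-0.04 ± 0.06, interval -0.17 to 0.09, limma, adjusted p = 0.637). ZRSR2 has a near copy, ZRSR2P1, for which no row was matched here, so some of its fragments may come from that copy. SCNM1 encodes a zinc-finger protein of the activated minor spliceosome, first found as a modifier of a mouse sodium channel defect whose gene carries U12-type introns. It was at 10.3, 10.5 and 11.1 FPKM in the control libraries and 11.2, 9.89 and 9.62 FPKM after knockdown, so that the highest and the lowest values were both knockdown libraries (-0.06 ± 0.06, interval -0.20 to 0.08, limma, adjusted p = 0.508). SCNM1 shares exons with the readthrough gene TNFAIP8L2-SCNM1, whose row did not exceed 7.8e-05 FPKM, and the sources used here do not say how the authors' program divided fragments between these rows.

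For the 6 genes with a change of at most 0.06, the 95% intervals together ran from -0.20 to 0.15 on the log2 scale, that is from 0.873 to 1.11 times control. A result that did not pass does not show that the level was the same in both groups. On simulated data built from these libraries, with 50 genes changed by each fold, limma called 60% of those given a 1.25-fold change and 98% of those given a 1.5-fold change. Far fewer genes were changed there than the 44.0% called in the data, which makes the adjustment stricter. These shares therefore do not give the rate of detection in the data themselves. The smallest estimate for any of the 9 in any library was about 400 fragments (RNPC3), and the share of counting error in these intervals was not tested. Among the control libraries, replicate 3 had the highest value for 6 of the 9 genes and also the highest FPKM total of the 6 libraries (486271, the lowest being 448986). In turn, si-Control replicate 1 had the lowest control value for 7 of the 9. The values without si-Control replicate 3 are given above for ZMAT5, and those without si-Control replicate 1 for PDCD7.

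The 9 levels kept nearly the same order in both groups. In the control libraries ZCRB1 led with a mean of 23.7 FPKM, followed by SNRNP35, SNRNP25, ZMAT5 and SCNM1 down to 10.6 FPKM, each with a range over libraries that did not touch the next. PDCD7, ZRSR2 and SNRNP48 followed with means from 6.94 to 6.48 FPKM, the ranges of PDCD7 and ZRSR2 overlapping, and RNPC3 came last at 5.35 FPKM. After knockdown the order differed in 1 place. SNRNP25, at 12.4 FPKM, lay below ZMAT5, at 14.6 FPKM, and their ranges did not overlap in either group. PDCD7, at 7.88 FPKM, was then clear of ZRSR2, at 6.57 FPKM, while ZRSR2 and SNRNP48 overlapped. All 9 lie in the middle of the expressed range, from the 29.6th to the 72.8th percentile of tested genes.

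In RefSeq (GRCh38.p14) SNRNP25 lies head to head with POLR3K, which encodes a subunit of RNA polymerase III. There the 2 genes start 219 bases apart on opposite strands of chromosome 16, so the stretch between them lies upstream of both. In GENCODE the POLR3K start lies 618 bases downstream of the SNRNP25 start, so the genes overlap and share no upstream stretch. The RefSeq stretch is printed here on the SNRNP25 strand because both neighbours were lower after knockdown. In RefSeq ZMAT5 lies head to head with UQCR10, a gene of respiratory complex III, over 361 bases on chromosome 22. The 250 bases before the ZMAT5 start and the 250 before the start of PDCD7, the gene that rose, are shown beside it. Capitals mark the CCAAT box in either orientation. They also mark the GC box, spelled GGGCGG, and a motif of ETS transcription factors, spelled CCGGAAG.
SNRNP25 (GRCh38.p14, chr16:53609-53827, plus strand): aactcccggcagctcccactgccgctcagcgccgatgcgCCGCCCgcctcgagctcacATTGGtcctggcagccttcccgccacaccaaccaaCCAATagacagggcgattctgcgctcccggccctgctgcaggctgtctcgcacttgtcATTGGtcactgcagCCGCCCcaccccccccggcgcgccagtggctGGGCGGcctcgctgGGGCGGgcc
ZMAT5 (GRCh38.p14, chr22:29767008-29767257, minus strand): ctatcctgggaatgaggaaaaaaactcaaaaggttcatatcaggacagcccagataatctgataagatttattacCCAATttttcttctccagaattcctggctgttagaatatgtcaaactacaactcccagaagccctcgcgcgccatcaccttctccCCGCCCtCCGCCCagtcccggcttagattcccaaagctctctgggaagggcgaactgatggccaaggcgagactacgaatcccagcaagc
PDCD7 (GRCh38.p14, chr15:65133809-65134058, minus strand): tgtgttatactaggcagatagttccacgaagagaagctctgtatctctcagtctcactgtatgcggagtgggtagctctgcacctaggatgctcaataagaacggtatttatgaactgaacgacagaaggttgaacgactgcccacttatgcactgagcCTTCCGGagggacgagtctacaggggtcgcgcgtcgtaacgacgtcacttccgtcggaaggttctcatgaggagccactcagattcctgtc
The SNRNP25 stretch holds 20 CpG dinucleotides and is 71.2% G and C, against 15 and 51.2% for PDCD7 and 9 and 49.6% for ZMAT5. In the 250 bases before its start SNRNP25 has CCAAT 1 time forward and 2 times in reverse and GGGCGG 2 times in each orientation. ZMAT5 has CCAAT 1 time forward and GGGCGG 2 times in reverse, and PDCD7 has CCGGAAG 1 time in reverse. Over 35116 RefSeq upstream windows of that length, 32.0% hold CCAAT, 42.6% GGGCGG and 8.52% CCGGAAG on either strand. TATAAA, held by 10.7%, was found in 0 of the 8 members with a window in the table. These matches are letters in a window, and no binding was measured.

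POLR3K was at 15.7, 16.4 and 16.1 FPKM in the control libraries and 14.2, 14.9 and 14.4 FPKM after knockdown. All 3 knockdown libraries were below the controls, and the fall of 0.15 ± 0.04 on the log2 scale (limma, adjusted p = 0.0190) lost its call in 2 of 17 alternatives, with an adjusted p of up to 0.0897 (without si-Control replicate 2). The neighbours did not move by the same amount. SNRNP25 was 0.988, 0.994 and 1.04 times POLR3K in the control libraries and 0.893, 0.853 and 0.824 times after knockdown, without overlap. In GENCODE the spans of the 2 genes overlap by 619 bases on opposite strands, and since the strand setting of the deposited values is not given, fragments from the shared part cannot be assigned. The same limit holds for other members whose spans, introns included, overlap a gene on the opposite strand. The longest such overlaps were of ZCRB1 with PPHLN1 (14041 bases), SCNM1 with LYSMD1 (6201 bases) and SNRNP35 with RILPL1 (3101 bases). UQCR10 went from 57.4, 61.2 and 66.9 FPKM to 72.2, 68.1 and 69.1 FPKM (0.18 ± 0.06, limma, adjusted p = 0.0254). It missed the threshold in 5 of 17 alternatives, with an adjusted p of up to 0.0913 when si-Control replicate 1 was left out. The ratio of ZMAT5 to UQCR10 was 0.210 ± 0.00198 in the control libraries and 0.209 ± 0.0160 after knockdown. Both ratios were chosen after the values were seen.

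**Figure D3:**
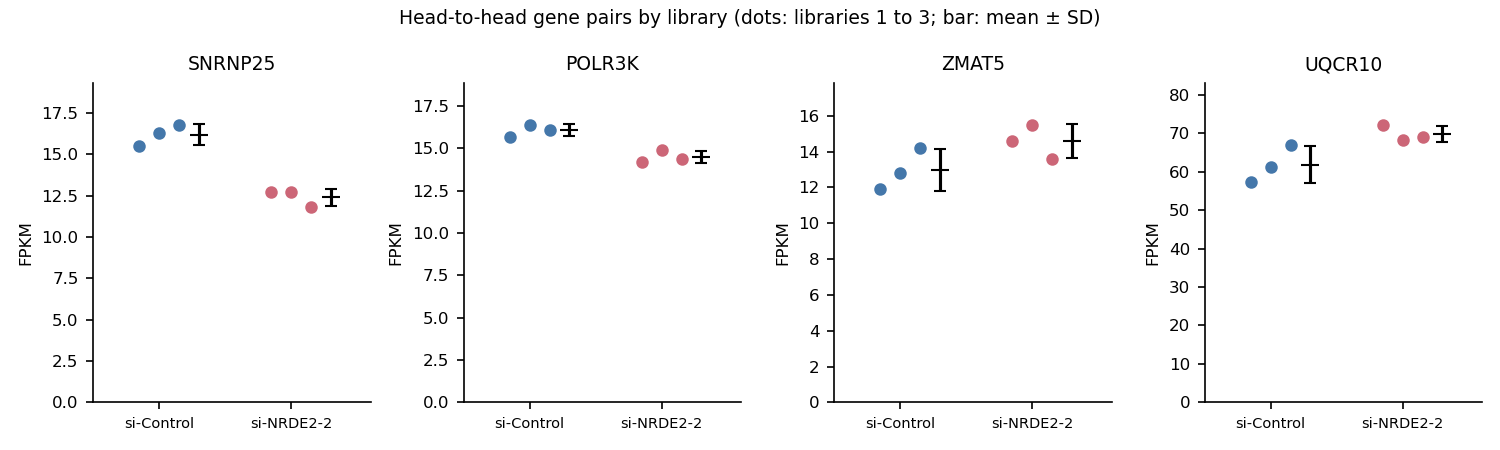
FPKM by library (vertical axes, from 0) for SNRNP25 and its neighbour POLR3K and for ZMAT5 and its neighbour UQCR10, with si-Control in blue, si-NRDE2-2 in red and the mean ± SD in black. SNRNP25 and POLR3K are both lower in all 3 knockdown libraries (means of 12.4 and 14.5 FPKM), and UQCR10 is higher in all 3 (mean 69.8 FPKM), while ZMAT5 overlaps.

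Several members have a relative in the major spliceosome that does the matching job there, and their ratio within a library does not depend on how that library was scaled. ZRSR2 was 0.0822 ± 0.00231 of U2AF1, the 3′ splice site reader of major introns, in the control libraries and 0.0750 ± 0.00803 after knockdown (exact permutation test, two-sided, p = 0.30). SNRNP35 was 0.207 ± 0.00961 of SNRNP70, the gene of U1-70K, and 0.213 ± 0.0115 after knockdown (exact permutation p = 0.60). RNPC3 was 0.119 ± 0.00568 of SNRPB2, a U2 snRNP gene, and 0.104 ± 0.0105 after knockdown (exact permutation p = 0.20). With 3 libraries against 3 the smallest p this test can give is 0.10, and adjusted over the 3 ratios the values were 0.45, 0.60 and 0.45. In every library the minor factor's mRNA was below that of its major relative, and with all libraries the groups overlapped for each of the 3 ratios. Single libraries moved the differences. On the log2 scale ZRSR2 to U2AF1 was -0.14 with all libraries, -0.05 without si-NRDE2-2 replicate 1 and -0.21 without si-NRDE2-2 replicate 3 (exact permutation p = 0.10, the smallest possible). RNPC3 to SNRPB2 was -0.20 with all libraries, -0.28 without si-NRDE2-2 replicate 2 (exact permutation p = 0.10) and -0.14 without si-NRDE2-2 replicate 3. SNRNP35 to SNRNP70 was 0.04 and ran from 0.00 (without si-NRDE2-2 replicate 3) to 0.08 (without si-Control replicate 2 or si-NRDE2-2 replicate 2).

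Other proteins of the minor spliceosome, or working with it, included larger changes than any of the 9 genes showed. The 12 symbols listed include more than 1 name for the same gene, and the 9 with a row were all tested. Of these, 3 rose, 3 fell and 3 did not pass, or 66.7% called against 44.0% of all genes. Without si-Control replicate 2, 1 of them fell. CCDC84, the table's name for CENATAC, which promotes splicing of the U12-type introns with AT-AC ends, was at 12.7, 12.7 and 11.8 FPKM in the control libraries and 9.15, 7.10 and 6.96 FPKM after knockdown. Every knockdown library was below the controls. The mean fell from 12.4 ± 0.494 to 7.74 ± 1.23 FPKM, a log2 fold change of -0.68 ± 0.09 (limma, adjusted p = 1.4e-04), larger than that of any of the 9 members, and it passed in all 17 alternatives (-0.81 to -0.61). DHX15, a helicase that takes spliceosomes apart, fell by 0.18 ± 0.05 (limma, adjusted p = 0.0123) and missed the threshold when si-Control replicate 2 was left out (adjusted p = 0.0557). RNF113A, a factor of the activated spliceosome, fell by 0.12 ± 0.04 (limma, adjusted p = 0.0362) and missed the threshold in 8 of 17 alternatives, with an adjusted p of up to 0.117.

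YBX1, a Y-box protein found in U11/U12 particles and in many other RNA complexes, rose from 232 ± 9.48 to 396 ± 3.70 FPKM. Its log2 fold change of 0.78 ± 0.05 (limma, adjusted p = 6.7e-07) was the largest of that list. RBM41, a relative of RNPC3 that binds the same U12 stem-loop, was at 8.24, 7.53 and 7.02 FPKM in the control libraries and 9.64, 9.22 and 9.86 FPKM after knockdown. The groups do not overlap for RBM41 (0.33 ± 0.06, limma, adjusted p = 0.00171), while RNPC3, given above, did not pass. PPIL2, a cyclophilin of the activated particle, rose by 0.23 ± 0.07 (limma, adjusted p = 0.0211), a call lost in 6 of 17 alternatives (adjusted p of up to 0.0743). RBM48 (0.09 ± 0.07), ARMC7 (0.09 ± 0.06) and CRIPT (0.05 ± 0.07), factors of the same activated particle, did not pass.

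**Figure D4:**
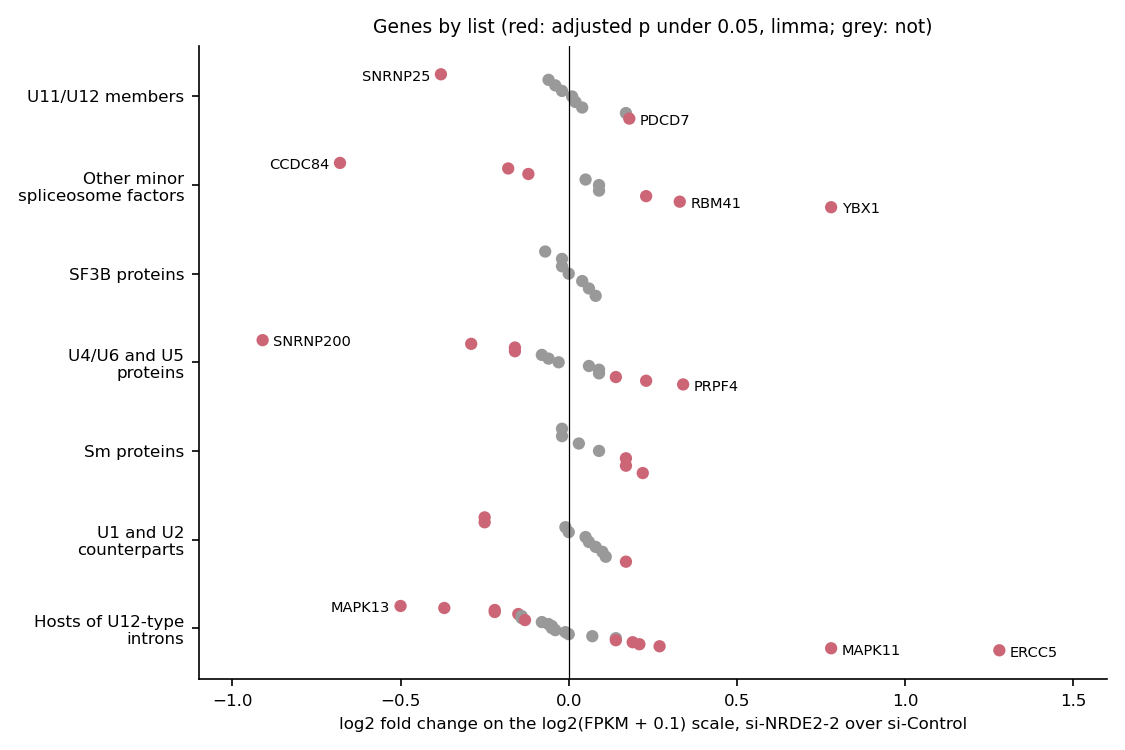
Log2 fold change (horizontal axis) of each tested gene in 7 lists, red where the adjusted p was under 0.05 and grey otherwise; selected genes are named. The 9 members lie between -0.38 (SNRNP25) and 0.18 (PDCD7), while CCDC84 (-0.68), YBX1 (0.78), SNRNP200 (-0.91) and ERCC5 (1.28) lie further out in other lists.

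The minor spliceosome shares several particles with the major one. Of 7 genes of the SF3B complex, which grips the branch point in both machines, 0 passed limma's adjusted threshold and 0 had an unadjusted p under 0.05, with log2 changes from -0.07 (SF3B1) to 0.08 (SF3B5). With GC and length trends removed 2 of them rose and 1 fell, and without si-Control replicate 3, 1 rose. Of 7 Sm genes, whose ring sits on both sets of snRNA, 3 rose and 0 fell, or 42.9% called against 44.0% of all genes, with SNRPD3 higher by 0.22 ± 0.04, SNRPD1 by 0.17 ± 0.05 and SNRPG by 0.17 ± 0.05. Without si-NRDE2-2 replicate 2 only 1 of them passed. Of 13 genes of the U4/U6 and U5 proteins 3 rose and 4 fell, or 53.8% called against 44.0% of all genes. The U5 helicase gene SNRNP200 went from 39.3 ± 2.80 to 20.8 ± 0.125 FPKM and its partner PRPF8 fell by 0.29 ± 0.05, while the U4/U6 gene PRPF4 rose by 0.34 ± 0.05 and the U5 GTPase gene EFTUD2 by 0.23 ± 0.04. With GC and length trends removed 5 of this list rose, and without si-NRDE2-2 replicate 3, 2 fell.

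Of 10 U1 and U2 genes of the major spliceosome 1 rose and 2 fell, a share of 30.0% where 44.0% of all tested genes and 22.2% of the 9 minor genes passed. SNRPA, a U1 protein gene, fell by 0.25 ± 0.05 and SF3A2, a U2 protein gene, by 0.25 ± 0.07 (adjusted p = 0.0538 without si-Control replicate 2, by limma), while SNRPB2 rose by 0.17 ± 0.05 and lost its call in 4 of 17 alternatives. Without si-Control replicate 3, 3 of this list rose, as did 3 with GC and length trends removed. Leaving out si-Control replicate 1, si-Control replicate 2, si-NRDE2-2 replicate 2 or si-NRDE2-2 replicate 3 left 0 that rose, and without si-Control replicate 2, 1 fell. Whether the lists differ from one another was not tested.

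Genes known to carry U12-type introns are the substrates of this machine. From 24 such genes listed from general knowledge, 23 were tested, of which 6 rose, 6 fell and 11 did not pass (52.2% called against 44.0% of all genes), with a median log2 change of -0.05. ERCC5, an excision repair nuclease gene, went from 1.66, 1.43 and 1.73 FPKM to 4.07, 3.74 and 4.27 FPKM (1.28 ± 0.09, limma, adjusted p = 1.3e-06). It shares exons with the readthrough gene BIVM-ERCC5, which was at 2.37 ± 0.109 FPKM in the control libraries and 2.57 ± 0.410 FPKM after knockdown, so the split between these rows is uncertain. Of the 4 p38 kinase genes, MAPK11 rose from 1.06 ± 0.0488 to 1.89 ± 0.116 FPKM and MAPK14 by 0.27 ± 0.04, whereas MAPK13 fell from 33.4 ± 1.68 to 23.6 ± 1.33 FPKM. The fourth, MAPK12, was at 8.31 FPKM on average in both groups and did not pass (limma, adjusted p = 0.999). NOP2, the nucleolar protein gene in which such an intron was studied early, fell from 24.1 ± 0.191 to 18.6 ± 0.724 FPKM. These values sum spliced and unspliced transcripts of a gene, so removal of the U12-type introns themselves was not measured.

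The 3′ UTRs of the 9 members were searched for the 6-base sequence GACGTA and for its longer relatives, one being GACAGTA and the other spelled GACTGTA, which an earlier look at these same fold changes had picked out among genes that rose most. All 3 were absent from the annotated 3′ UTRs of the 9 (0 of 9 with a match), while 17.8% of 10611 tested genes with a 3′ UTR held at least 1. The 3′ UTRs searched ran from 18 bases (ZRSR2) and 218 bases (RNPC3) to 3094 bases (SNRNP48), and short ones leave little room for a match. Whether 0 of 9 differs from the share of all genes was not tested. NRDE2 itself held at least 1, as did ERCC5, BIVM-ERCC5, MAPK14, PPIL2, EFTUD2 and SNRPB2. Since the sequences were picked from these fold changes, nothing about the holders' direction is read from them.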

How the data were processed

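Poly(A) RNA from 6 MDA-MB-231 samples was sequenced (TruSeq Stranded mRNA, per the labels' protocols), and the authors deposited 1 table of FPKM per gene, which is the unit used here. STAR 2.5.1b, DESeq2 1.10.1 and hg19 are named in the submitters' processing notes without a role. The program that made the FPKM, its annotation and its strand setting are not given in the sources used here. The table holds 4 further columns that were not used. Nothing states that replicates are separate cultures, so p-values measure only how these samples vary, and that variation may be technical.

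Genes that reached 1 FPKM in 3 or more libraries entered the test, small RNA rows left out, with limma 3.58.1 in R 4.3.3 on log2(FPKM + 0.1), with a trended, robust prior and Benjamini-Hochberg adjustment. The pseudocount understates changes of low genes. The procedure was tested on simulated data of 11788 genes (9 false calls among those left unchanged). Depth was estimated from the FPKM that 1 fragment is worth in low genes of at least 2000 bases. Ratios were tested by exact two-sided permutation. Transcript annotation is GENCODE 29 and upstream sequences are RefSeq's (GRCh38.p14), with 8 of the 9 members matched.

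The members and lists were chosen with earlier results of these data known. Named genes are all 9 members and, from each other list, up to 4 called genes by smallest adjusted p and 1 called in the opposite direction. PPIL2, RNF113A, RBM48, ARMC7, CRIPT, SF3B1, SF3B5, MAPK12, MAPK14, BIVM-ERCC5, POLR3K and UQCR10 fall outside this rule where it does not name them and were chosen after their values were seen. A search for U12-type introns by sequence was not run. Alternatives were the pseudocount, filter, scaling, variance prior, replicate block, GC and length trends and each library left out.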

Additional observations from a re-analysis of the deposited data

How the results depend on the processing

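Over 17 alternatives SNRNP25 was the 1 member that fell in each. The number of members that changed was 1 to 3 when single libraries were left out, and the number that rose was 0 to 2. With median-ratio scaling 2 rose, as did 2 after GC and length trends were taken out, where the median log2 change of the members was -0.0362. Single libraries left out gave ranges of -0.08 to 0.01 for ZRSR2, -0.10 to 0.01 for RNPC3, -0.02 to 0.04 for SNRNP48 and -0.02 to 0.09 for ZCRB1. Changes of sign occurred only among members that passed in no alternative. With GC and length trends removed SNRNP48 was -0.04 and ZCRB1 -0.04. Without si-NRDE2-2 replicate 1 ZRSR2 was 0.01 and RNPC3 0.01, and RNPC3 was also 0.01 without si-NRDE2-2 replicate 3. SNRNP48 was -0.02 without si-Control replicate 3, -0.02 without si-NRDE2-2 replicate 2 and -0.0022 without si-NRDE2-2 replicate 3, and ZCRB1 was -0.02 without si-Control replicate 1. The cause was not tested. All tested genes gave 3929 to 6211 changed genes, and median-ratio scaling moved the split from 2469 higher and 2716 lower to 2624 and 2515. Same-numbered libraries did not deviate together (correlations of -0.123, 0.105 and -0.121), so the numbers were not taken as pairs. With the replicate number as a block 2254 genes rose and 2432 fell, and 2 members changed. Leaving out a library makes the fit smaller, and about 400 fragments for RNPC3 was the least depth behind a member.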

Other observations

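The 4 snRNA genes particular to the minor spliceosome have rows in the table but were not tested, since these short RNAs without a poly(A) tail are poorly captured by a poly(A) library. RNU6ATAC was at 14.5, 46.1 and 42.1 FPKM in the control libraries and 25.5, 34.9 and 44.4 FPKM after knockdown. RNU11 was at 3.33, 12.7 and 0 FPKM and then 0, 10.3 and 8.74 FPKM. RNU12 was above 0 in 1 library of each group (2.13 and 2.24 FPKM), and RNU4ATAC in 1 library of each group (7.61 and 4.20 FPKM). The values within a group spread more than the groups differ, so these rows give no level of the snRNAs.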
